A study of Mus musculus with 4 samples.

Results

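The genes described are those for the proteins of the cytosolic ribosome, chosen by gene name: any name made of Rpl or Rps and a number with at most a short ending, together with Rplp0, Rplp1, Rplp2 and Rpsa, with names marked as pseudogenes left out. Of 26614 gene names attached to regions of open chromatin, 65 met this rule, 40 of the large and 25 of the small subunit. They were the nearest gene of 140 of 80925 named regions. Of 84 protein-coding mouse genes whose RefSeq symbol meets the rule, 64 had a region and 20, among them Rplp2, had none of their own. The remaining member, Rpl6l, is not listed as protein-coding there.

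RAW264.7, an established mouse macrophage-like line, was profiled by ATAC-seq, which reads out open DNA by where a transposase can cut and tag it. The series holds 2 libraries titled Gel, cells with a hydrogel, and 2 titled CuNZ@Gel, cells with the nanozyme-bearing hydrogel, all after 48 h. The treatment text is shared by all 4 libraries and names CuNZ@Gel only, so the Gel group rests on the titles. No untreated cells are among the samples, and nothing in the labels says that replicates were separate cultures, so the spread behind the p-values may be technical.

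The cytosolic ribosome joins a small subunit, which reads the messenger RNA, to a large subunit, which forms the peptide bond. Each subunit is an RNA core coated with proteins that are made in matched amounts, and growing macrophages spend much of their transcription on them. The promoters of these genes are compact, usually lack a TATA box, and start transcription at a C within a stretch of pyrimidines, which places a 5′ terminal oligopyrimidine (TOP) motif at the head of the messenger RNA. The growth regulator mTORC1 acts on translation of such messengers through that motif.

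Annotated start sites of 8 members are shown first, because a pyrimidine stretch at the start is typical of these genes. Annotated starts may differ from those used in these cells, so a marked run need not be the TOP stretch. Each line holds 20 bases before and 20 from the RefSeq start (build GRCm38.p6), 5′ to 3′ on the transcribed strand, with the longest pyrimidine run that touches the 10 bases on either side of the start in capitals. Accessibility summed over all regions of a gene fell in CuNZ@Gel for the first 4. For the last 4 no change of the sum passed the test, although the strongest single regions of Rps15a and Rps23 fell.
Rplp0: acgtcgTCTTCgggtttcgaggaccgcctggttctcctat
Rps2: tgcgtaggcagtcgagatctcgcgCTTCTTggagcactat
Rpl27a: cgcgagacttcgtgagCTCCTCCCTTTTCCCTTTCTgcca
Rps6: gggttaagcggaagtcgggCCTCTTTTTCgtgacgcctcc
Rps15a: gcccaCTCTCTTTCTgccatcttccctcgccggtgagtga
Rps21: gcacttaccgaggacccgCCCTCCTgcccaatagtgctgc
Rps23: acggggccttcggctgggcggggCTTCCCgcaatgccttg
Rps27: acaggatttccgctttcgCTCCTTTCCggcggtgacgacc
The runs were 5, 6, 20 and 10 bases long in the 4 whose sums fell and 10, 7, 6 and 9 in the 4 others, so long and short runs occurred on both sides. The annotated start base is a G in Rplp0 and Rps23, and in Rplp0 and Rps2 the letters TATAAA lie after the annotated start. These run lengths therefore cannot show how the TOP stretch itself goes with the change.

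Chromatin near ribosomal protein genes was less accessible in CuNZ@Gel than in Gel. A gene's value here is the sum, over all regions nearest to it, of reads per 1000000 effective reads (RPM), and a change is the difference of log2(RPM + 1), CuNZ@Gel minus Gel, with its standard error from limma, 2 libraries a group. Of 65 members, all of which passed the filter on low values, 56 were lower at a Benjamini-Hochberg adjusted p under 0.05, 0 were higher and 9 did not pass. Over all 25900 genes tested the same test called 36.1% lower and 20.5% higher. The median change was -0.66 in members and -0.10 in all genes. Both CuNZ@Gel libraries lay below both Gel libraries in 59 members, an arrangement that 45.9% of all genes showed. In 3 members both CuNZ@Gel libraries lay above both Gel libraries, and the share of all genes with that arrangement was not counted. Reads in members' regions made up 0.382% and 0.372% of all reads in regions in Gel, and 0.303% and 0.296% in CuNZ@Gel. The 56 called members fell by 16.6% to 52.3%, with a median of 39.4%. Of them 47 kept the call whichever single library was left out. The 9 that lost it without 1 library included Rpl19, Rpl26, Rpl37a, Rpl4, Rpl5, Rps10, Rps14 and Rps24, whose changes lay from -0.41 to -0.26.

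**Figure D1:**
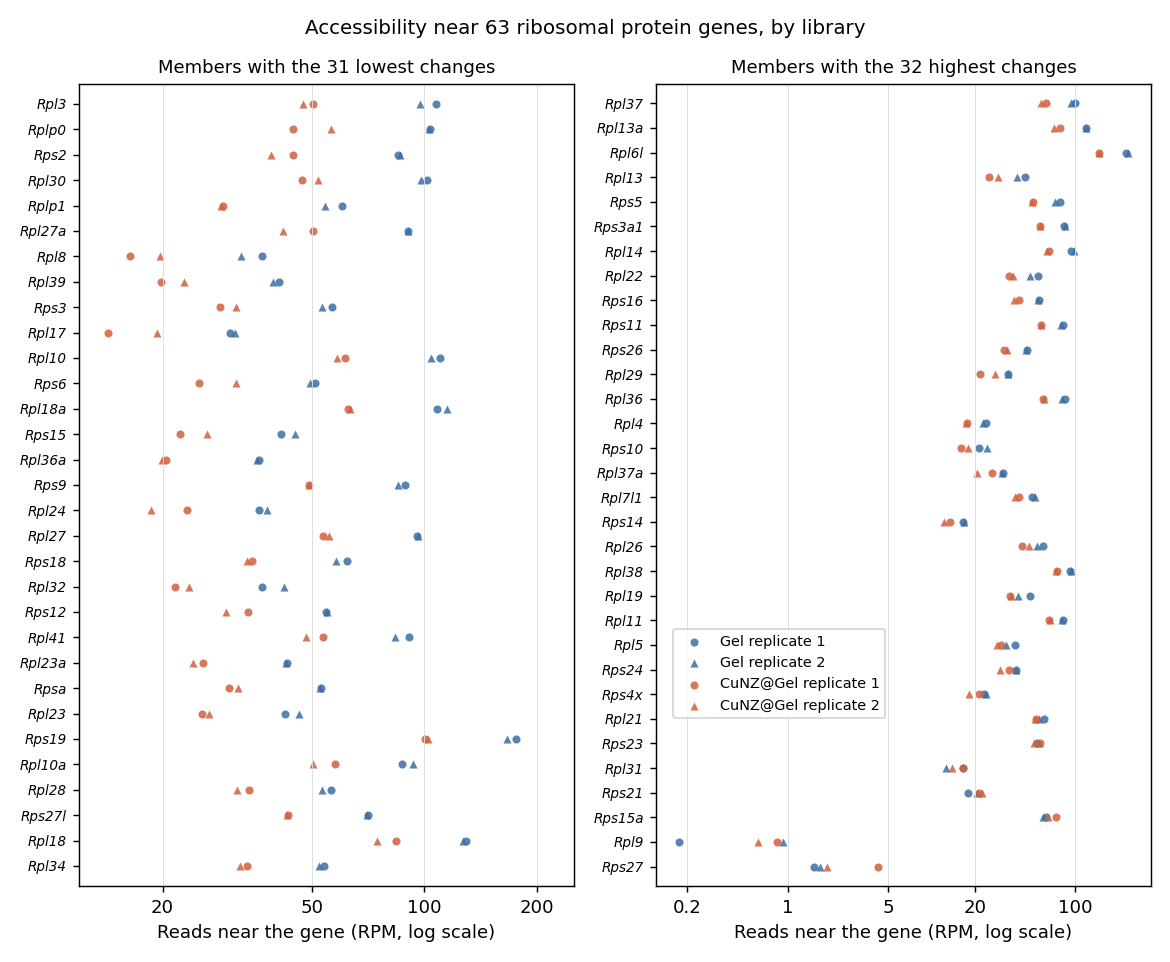
Each row is a member and each point a library, with the reads near the gene in RPM on a log axis; blue marks Gel and orange CuNZ@Gel, circles replicate 1 and triangles replicate 2. The 63 members shown are ordered by their change, and 57 have both orange points to the left of both blue points.

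Depth and scaling differed between the groups and touch every count given here. Reads in regions numbered 18843443 and 17914970 in Gel and 7440784 and 10236951 in CuNZ@Gel. The background pileup, worked out from the steps of the deposited folds, was 1.003 and 0.962 in Gel and 1.168 and 1.201 in CuNZ@Gel. Over all regions, strong ones fell and weak ones rose. Cyclic loess, which removes this trend of change with level across the libraries, left 26 members lower and 1 higher, with a median of -0.18, where 15.9% of all genes were lower and 20.2% higher. All 26 were among the 56. Scaling to total reads in regions gave 42 members lower and 5 higher, where 18.7% of all genes were lower and 34.3% higher. The medians were -0.38 in members and 0.15 in all genes. Scaling to the background pileup gave 63 members lower and 0 higher, where 75.5% of all genes were lower and 2.77% higher. The medians on that scale were -1.70 in members and -1.06 in all genes. Macrophage markers were present, 10 of 10, at 1376 and 1387 RPM summed in Gel and 1111 and 1118 in CuNZ@Gel. Under the deposited scaling 6 of them were lower and 1 higher, where 36.1% of all genes were lower and 20.5% higher. With cyclic loess 1 of the 10 was lower and 4 were higher (median 0.08). Fibroblast markers had regions near 3 of 6 genes (77.6 and 76.9 RPM in Gel, 85.4 and 78.9 in CuNZ@Gel) and lymphocyte markers near 4 of 6 (61.3 and 60.4 against 61.7 and 53.8). Whether depth or the background has a part in the members' falls was not tested.

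**Figure D2:**
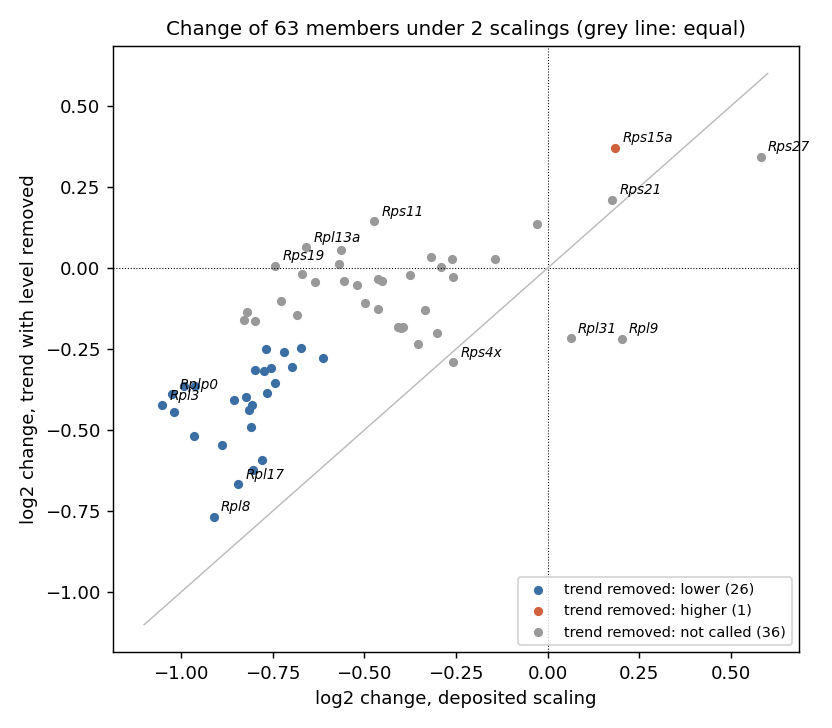
Each point is 1 of 63 members, with its log2 change under the deposited scaling on the horizontal axis and after removal of the trend with level on the vertical axis. Of the points with a deposited change below 0, all but Rps4x lie above the grey line of equality; 26 stayed lower (blue), and Rps15a (orange) was called higher.

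Of the 40 large-subunit members, 61.5% of all members, 37 were lower (median -0.68) and 3, Rpl21, Rpl31 and Rpl9, did not pass. Removing the trend left 17 of the 40 lower and 0 higher. Rpl3, a core protein close to the peptide-forming centre, had 107.6 and 97.4 RPM in Gel and 50.6 and 47.3 in CuNZ@Gel. The CuNZ@Gel values were less than any Gel value by a wide margin, and the change was -1.05 ± 0.07 (adjusted p = 9.35e-10), the lowest of all members. These values rested on 1845 and 1574 reads in Gel and 417 and 532 in CuNZ@Gel, in 1 region at chr15:79966977-79968174 (GRCm39).

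Rplp0 and Rplp1 encode proteins of the stalk, which recruits elongation factors. Rplp0 had 103.2 and 102.6 RPM in Gel and 44.6 and 56.2 in CuNZ@Gel. It fell by 1.02 ± 0.09 on the log2 scale (adjusted p = 8.29e-09), although its CuNZ@Gel libraries differed more from each other than its Gel libraries. Rplp1 had 60.1 and 54.4 RPM in Gel and 29.0 and 28.6 in CuNZ@Gel, a change of -0.96 ± 0.09 (adjusted p = 3.34e-08). Both remained lower with the trend removed, at -0.39 and -0.52.

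Rpl30, Rpl27a, Rpl8 and Rpl39 complete the large-subunit members with the lowest changes, from -0.99 to -0.89. Rpl8, a conserved protein bound near the peptidyl transferase centre, had 36.9 and 32.4 RPM in Gel and 16.4 and 19.6 in CuNZ@Gel. Its change of -0.91 ± 0.12 (adjusted p = 2.42e-06) became -0.77 with the trend removed, the lowest of all members on that scale. Both of its regions fell. Rpl39, which lines the exit tunnel for the new peptide, had 40.99 and 39.3 RPM in Gel and 19.8 and 22.8 in CuNZ@Gel, a change of -0.89 ± 0.11 (adjusted p = 8.4e-07).

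Several large-subunit genes have known roles beyond bulk protein synthesis. Rpl5 and Rpl11 form, with 5S ribosomal RNA, the particle that binds Mdm2 and thereby stabilises p53. Rpl11 had 81.5 and 80.6 RPM in Gel and 65.4 and 66.7 in CuNZ@Gel, without overlap, and changed by -0.29 ± 0.07 (adjusted p = 0.00123). Rpl5 had 38.0 and 33.1 RPM in Gel and 30.5 and 28.3 in CuNZ@Gel, and its change of -0.26 ± 0.10 (adjusted p = 0.04) fell short without Gel replicate 1 (-0.16, adjusted p = 0.392) and without CuNZ@Gel replicate 2 (-0.21, adjusted p = 0.150). With the trend removed these genes stood at 0.00 and 0.03, not called.

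Rpl10 is fitted late in the maturation of the large subunit and lies on the X chromosome. It had 110.0 and 104.1 RPM in Gel and 61.2 and 58.4 in CuNZ@Gel, a change of -0.83 ± 0.07 (adjusted p = 5.51e-09). Rpl13a is also known as part of an interferon-gamma response that silences translation of inflammatory messengers in macrophages. It had 117.6 and 118.9 RPM in Gel and 77.7 and 71.5 in CuNZ@Gel, a change of -0.66 ± 0.06 (adjusted p = 5.35e-08). Neither was called with the trend removed, at -0.16 and 0.06.

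Rpl22 and Rpl38 are tied by mouse genetics to lymphocyte development and to translation of Hox messengers. Rpl22 changed by -0.52 ± 0.09 (adjusted p = 7.68e-05) and Rpl38 by -0.32 ± 0.07 (adjusted p = 0.000363). Rpl38 had 91.0 and 92.9 RPM in Gel and 74.1 and 73.0 in CuNZ@Gel over 4 regions. The fall lay in its strongest region, at -0.54, while the next, at 29.5 and 30.2 RPM in Gel and 29.5 and 29.95 in CuNZ@Gel, changed by -0.01 ± 0.11. Neither gene was called with the trend removed.

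Among small-subunit members 19 of 25 were lower (median -0.50), and 6 did not pass, among them Rps4x, Rps23, Rps21, Rps15a and Rps27. Without the trend 9 of the 25 were lower and 1 higher. On the strongest region of each gene alone, 23 of 25 small-subunit and 37 of 40 large-subunit members were lower. A difference between the subunits was not tested. Rps2, which lies at the entry of the messenger RNA channel, had 85.0 and 86.1 RPM in Gel and 44.6 and 39.0 in CuNZ@Gel, a change of -1.02 ± 0.08 (adjusted p = 3.55e-09). Rps3, another protein of that entry site with a described role in NF-kappa-B binding to DNA, changed by -0.85 ± 0.09 (adjusted p = 1.93e-07). Rps6, the ribosomal substrate of the S6 kinases, had 51.2 and 49.5 RPM in Gel and 25.0 and 31.4 in CuNZ@Gel. It fell by 0.82 ± 0.11 on the log2 scale (adjusted p = 1.74e-06). Rpsa, whose product is also described as a laminin receptor, changed by -0.75 ± 0.09 (adjusted p = 6.5e-07). All 4 stayed lower with the trend removed, between -0.45 and -0.31.

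Rps19 and Rps14 are the small-subunit genes best known from human anaemia, in Diamond-Blackfan anaemia and in the 5q- syndrome. Rps19 was among the most accessible members, with 175.0 and 165.6 RPM in Gel and 100.3 and 102.4 in CuNZ@Gel. Its change was -0.74 ± 0.06 (adjusted p = 1.53e-09), and 0.01 with the trend removed, not called. Rps14 was among the least accessible, with 16.5 and 16.7 RPM in Gel and 13.3 and 12.3 in CuNZ@Gel, and its change of -0.35 ± 0.14 (adjusted p = 0.0367) lost the call without Gel replicate 1 (adjusted p = 0.151), Gel replicate 2 (adjusted p = 0.176) or CuNZ@Gel replicate 2 (adjusted p = 0.109). Rps10, also of low level, changed by -0.40 ± 0.13 (adjusted p = 0.0108) and lost the call without Gel replicate 2 (adjusted p = 0.162) or CuNZ@Gel replicate 1 (adjusted p = 0.0600).

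Among the members of highest level were Rpl6l, Rps19, Rpl18 and Rpl13a. Rpl6l, an Rpl6-like gene, had 224 and 232 RPM in Gel and 146.8 and 146.1 in CuNZ@Gel over 6 regions, a change of -0.63 ± 0.05 (adjusted p = 1.58e-09). Rpl18 changed by -0.68 ± 0.07 (adjusted p = 4.06e-08). With the trend removed both lost the call, at -0.04 and -0.15. Many ribosomal protein genes have near-identical processed copies elsewhere in the genome. How reads with several matching places were treated is not given in the sources used here, so levels of single members are uncertain to that extent.

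Of the paralogs, Rpl7l1 and Rps27l had regions. Rps27l, which p53 is known to induce, had 70.9 and 70.2 RPM in Gel and 43.3 and 43.0 in CuNZ@Gel, a change of -0.70 ± 0.08 (adjusted p = 2.85e-07), and stayed lower with the trend removed (-0.31). Rpl7l1, which acts in ribosome assembly, changed by -0.38 ± 0.09 (adjusted p = 0.00105) and was at -0.02 there, not called. Without these paralogs the counts were 54 lower and 0 higher of 63 members.

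Under the deposited scaling most members were lower at their strongest region, and few of their weaker regions were. Of 140 regions near members 137 passed the filter. Of these, 72 were lower and 20 higher, with a median of -0.41, where 21.9% of all 77014 regions tested were lower and 21.2% higher. With the trend removed 43 were lower and 17 higher, against 13.9% and 18.8% of all regions. Each member has 1 strongest region by mean level over all 4 libraries. Of these 65 regions 60 were lower and 0 higher, where 40.1% of the strongest regions of all 25827 genes were lower and 15.3% higher. Their median change was -0.73, with median levels of 49.5 RPM in Gel and 29.97 in CuNZ@Gel. Removal of the trend left 32 of the 65 lower, 1 higher and 32 not called (median -0.23), against 16.2% lower and 18% higher for the strongest regions of all genes. They were 914 bases wide in the median, and 62 carried a peak in all 4 libraries. Of the other 75 regions 72 were tested, of which 12 were lower and 20 higher (median 0.07), or 11 and 16 with the trend removed, and their median width was 446 bases. The share called among weaker regions of all genes was not counted. Strongest regions of all genes were also lower more often (40.1%) than all regions tested (21.9%), so this contrast is not particular to members. Regions were strongest or not by their level, and level itself went with the change, so these counts describe the regions and were not tested against each other.

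**Figure D3:**
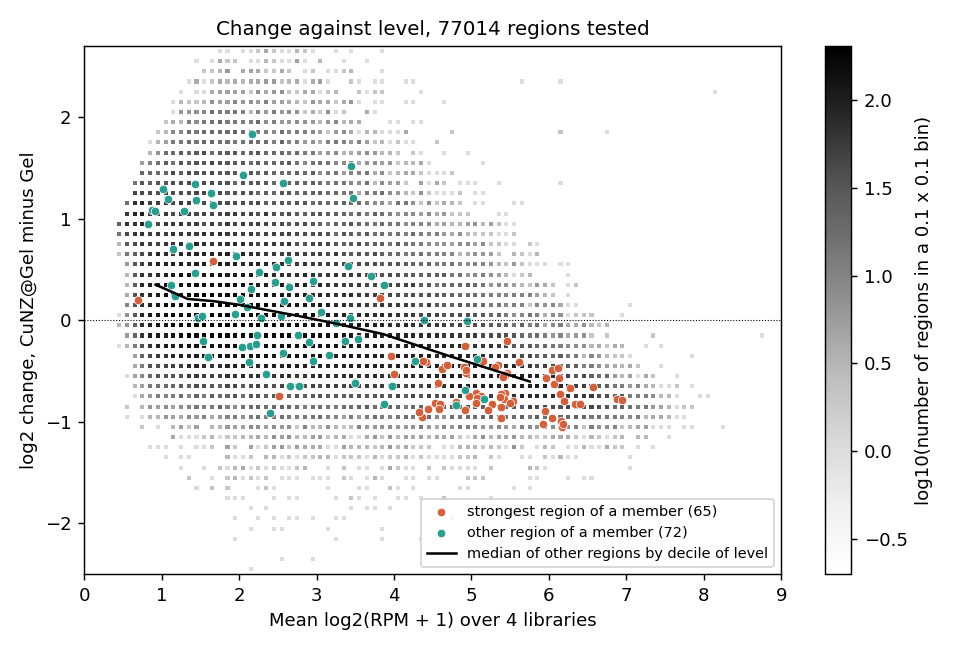
Grey squares count all regions tested by mean log2(RPM + 1) over 4 libraries (horizontal) and log2 change (vertical, shown from -2.5 to 2.7), orange points are the strongest region of each member, green points its other regions, and the black line is the median of non-member regions by decile of level. Most orange points lie at high level and below the line, and green points spread to both sides of 0.

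The members' strong regions were set beside other regions of like level. In the top decile of mean level 36 of 37 member regions were lower (median change -0.77), against 86.8% of 7665 other regions (median -0.60). In the next decile 26 of 29 were lower (median -0.69), against 55.6% of 7672 others (median -0.34). In the lowest decile 0 of 7 member regions were lower and 5 were higher (median 1.08), while 28.1% of the others were higher and 0.74% lower (median 0.35). At this level a region low in Gel can pass the filter through the CuNZ@Gel libraries alone. The filter itself can thus favour rises there, and its part in these counts was not tested. Spearman's rho between change and level was -0.75 over the 137 member regions and -0.45 over all regions, a description only, since both measures come from the same libraries and regions are not independent.

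In 10 of the 30 members with more than 1 region, at least 1 region was called lower and another higher, among them Rpl11, Rpl21, Rpl31, Rpl34, Rpl41, Rps15a, Rps23, Rps24 and Rps4x. Of the 9 members without a call, 6 are of this kind, so their sums join regions that moved apart. The share of all genes with calls in both directions was not counted, so whether members differ from other genes in this is not known. Over all regions tested 21.9% were lower and 21.2% higher.

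**Figure D4:**
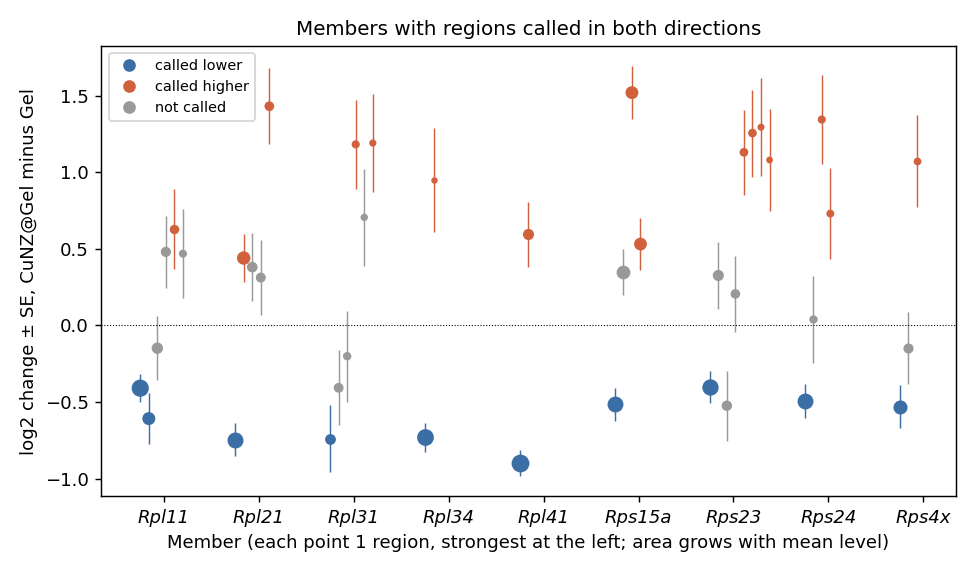
For 9 of these members every tested region is a point at its log2 change, with its standard error, from the strongest region at the left to the weakest at the right; blue was called lower, orange higher and grey not called. In all 9 the strongest region is blue, and every orange point is a weaker region.

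Rps15a, a small-subunit protein, shows how a sum can hide this. The gene had 62.2 and 59.4 RPM in Gel and 73.8 and 64.9 in CuNZ@Gel, and its change of 0.18 ± 0.08 did not pass (adjusted p = 0.0526). Its strongest region, chr7:117714977-117715876, fell from 35.8 and 35.2 RPM to 25.0 and 24.1, by 0.51 ± 0.11 on the log2 scale (adjusted p = 0.000102). A weaker region, chr7:117703851-117704631, rose from 4.66 and 6.31 RPM to 18.9 and 16.1, a change of 1.52 ± 0.17 (adjusted p = 2.41e-10). With the trend removed Rps15a was the only member called higher (0.37, adjusted p = 0.000553), and it was also called higher without CuNZ@Gel replicate 2 (0.28, adjusted p = 0.0113).

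Rps23, a protein of the decoding centre, had 8 regions that also moved apart. Its strongest region fell by 0.40 ± 0.10 on the log2 scale and 4 of its weakest rose, by 1.08 to 1.29, for a sum of 54.5 and 55.6 RPM in Gel and 56.9 and 51.3 in CuNZ@Gel (-0.03 ± 0.08, adjusted p = 0.798). Rpl31, near the tunnel exit, had a sum of 16.5 and 12.6 RPM against 16.6 and 13.8 (0.06 ± 0.15, adjusted p = 0.757). Its strongest region went from 7.12 and 5.76 to 3.40 and 3.47 RPM, a change of -0.74 ± 0.22 (adjusted p = 0.00460). Rpl21 changed by -0.14 ± 0.08 (adjusted p = 0.131) with its strongest region at -0.75 ± 0.11. Rps4x, the X-linked form of Rps4, changed by -0.26 ± 0.12 (adjusted p = 0.0796) with its strongest region at -0.53 ± 0.14, and it was called lower without CuNZ@Gel replicate 1 (-0.37, adjusted p = 0.0301).

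Of the 3 other members without a call, Rps21 had no region that fell. It had 17.9 and 20.7 RPM in Gel and 21.3 and 22.4 in CuNZ@Gel, without overlap and higher in CuNZ@Gel, and changed by 0.18 ± 0.12 (adjusted p = 0.241). Rpl9 and Rps27 had the lowest levels of all members, in 1 narrow region each. Rpl9 had 3 and 15 reads in Gel and 7 and 7 in CuNZ@Gel (0.20 ± 0.36, adjusted p = 0.663), too few to show a change of the size seen in other members. Rps27 had 1.52 and 1.67 RPM in Gel and 4.25 and 1.87 in CuNZ@Gel. Its change of 0.58 ± 0.30 (adjusted p = 0.107) became 1.02 (adjusted p = 0.00707) without CuNZ@Gel replicate 2, the higher value being that of the library kept.

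Reads close to such genes can be counted under a neighbour, since each region is given to its nearest gene by the authors. Chosen after the values were seen, genes within 1000 bases of Rpl9 and Rps27 in RefSeq (GRCm38.p6) were looked up. Lias, which neighbours Rpl9, had 47.5 and 39.7 RPM in Gel and 29.5 and 28.4 in CuNZ@Gel (-0.57 ± 0.10, adjusted p = 8.95e-05). Rab13, which neighbours Rps27, had 83.0 and 73.9 against 60.3 and 51.8 (-0.48 ± 0.08, adjusted p = 6.48e-05), and Nup210l, also beside it, was at -0.39 ± 0.18 (adjusted p = 0.0735). Once the trend was removed, Lias stayed lower (-0.33, adjusted p = 0.0145), Rab13 lost its call (-0.13, adjusted p = 0.242) and Nup210l was called lower (-0.68, adjusted p = 0.00332).

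Likewise, of the 20 protein-coding genes without a region, 14 had a neighbour within 1000 bases that had regions. Of the 19 neighbours, 15 were lower, 0 higher and 4 not called (median -0.48), where 36.1% of all genes were lower. Of the same 19, with the trend removed, 5 were lower, 1, Map7 beside Rpl32l, was higher and 13 were not called (median -0.09), against 15.9% of all genes lower and 20.2% higher. Med22, beside Rpl7a, had 81.8 and 77.5 RPM in Gel and 47.3 and 49.8 in CuNZ@Gel (-0.70 ± 0.08, adjusted p = 1.85e-07). Surf1, also beside Rpl7a, was not called (-0.25 ± 0.11, adjusted p = 0.0581), nor were Map7 (-0.07), Iqcg (-0.16) and Snord14a (-0.43). Pidd1, beside the stalk gene Rplp2, was at -0.43 ± 0.07 (adjusted p = 2.44e-05). Mtif2 and Clhc1, beside Rps27a, which encodes ubiquitin fused to a ribosomal protein, were at -0.38 ± 0.13 (adjusted p = 0.0190) and -0.27 ± 0.09 (adjusted p = 0.0154). Gm32950, beside the paralog Rpl22l1, was at -0.95 ± 0.10 (adjusted p = 2.5e-07), and Msrb1, beside the muscle paralog Rpl3l, at -0.60 ± 0.07 (adjusted p = 2.7e-07). Of the 6 neighbours named here as lower, only Gm32950 stayed lower with the trend removed (-0.51). The other lower ones lay between -0.20 and 0.08 and lost the call. The paralogs Rpl10l and Rpl39l had no such neighbour. Which of the 2 genes such a region serves cannot be told apart.

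Promoters of members were read from RefSeq to show what a falling and a not falling member look like. The table holds 300 bases for each of 57 promoters of 48 of the 65 members (73.8%), too few for a comparison of the whole set with other genes, so the shares describe these 57 only. The ETS core CCGGAAG, on either strand, stood in 20 of 57, and in 8.86% of all 32851 promoters of that length. The SP1 core GGGCGG stood in 34 of 57 (35.7% of all), the YY1 core AAGATGG in 7 of 57 (6.34%), and TATAAA starting 40 to 20 bases before the start in 0 of 57 (1.99%). In Rplp0 and Rps2, for example, TATAAA stands after the annotated start, outside that stretch. This count, and those of pyrimidines that follow, thus hold for annotated starts only. A C at the start followed by at least 4 pyrimidines stood in 9 of 57 (2.51% of all), and a run of at least 8 pyrimidines touching the 10 bases on either side of the start in 23 of 57 (13.7%). Members with an ETS core had a median change of -0.67 (19 genes) and those without of -0.66 (29 genes). For the SP1 core the medians were -0.67 with it (30 genes) and -0.49 without (18 genes), and for the YY1 core -0.46 (7 genes) and -0.70 (41 genes). Members with the C and at least 4 pyrimidines had a median of -0.40 (9 genes) and those without of -0.67 (39 genes), and the medians for the run of at least 8 pyrimidines were -0.64 (22 genes) and -0.70 (26 genes). None of these differences was tested.

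Promoters of Rps2, which fell by 1.02 on the log2 scale, and Rps21, which did not fall, are shown because both hold ETS and SP1 cores, in capitals, 1 and 1 in Rps2 and 2 and 1 in Rps21. They run from 250 bases before to 50 after the start, Rps2 at chr17:24719813-24720112 and Rps21 at chr2:180257129-180257428, both on the plus strand of GRCm38.p6. The deposited regions are on GRCm39, so they were not placed on these letters.
Rps2: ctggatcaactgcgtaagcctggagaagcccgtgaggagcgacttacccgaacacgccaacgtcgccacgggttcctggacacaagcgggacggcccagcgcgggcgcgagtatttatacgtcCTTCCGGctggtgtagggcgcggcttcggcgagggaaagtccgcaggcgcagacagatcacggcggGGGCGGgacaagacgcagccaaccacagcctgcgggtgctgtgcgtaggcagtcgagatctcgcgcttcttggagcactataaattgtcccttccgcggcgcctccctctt
Rps21: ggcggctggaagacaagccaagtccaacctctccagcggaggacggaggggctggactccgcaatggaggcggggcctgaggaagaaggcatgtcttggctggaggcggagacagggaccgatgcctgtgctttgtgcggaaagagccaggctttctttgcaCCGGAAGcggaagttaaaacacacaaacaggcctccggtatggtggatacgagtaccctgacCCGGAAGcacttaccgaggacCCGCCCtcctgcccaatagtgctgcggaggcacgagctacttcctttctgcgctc
A match of letters is not evidence that a factor binds there, and these motifs do not separate the pair.

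Other genes of ribosome supply and use were counted in the same way, to be read against the 36.1% of all genes that were lower and 20.5% that were higher, and, with the trend removed, 15.9% and 20.2%. Translation factors were lower in 38 of 40 genes and higher in 0 (median -0.56). The helicase gene Eif4a2 (-1.27 ± 0.07, adjusted p = 7.68e-11) and the scaffold subunit gene Eif3c (-1.26 ± 0.09, adjusted p = 1.02e-09) fell most. The highest change was that of Eif4e, the cap-binding protein gene, at 0.09 ± 0.06 (adjusted p = 0.212). Ribosome assembly genes were lower in 32 of 37 and higher in 0 (median -0.52). Gar1 and Nop56, both parts of small nucleolar ribonucleoproteins, were at -1.003 ± 0.11 (adjusted p = 2.12e-07) and -0.91 ± 0.08 (adjusted p = 2.57e-08), and Mrto4 at 0.40 ± 0.21 (adjusted p = 0.126). With the trend removed 17 translation factors were lower and 1, Eif4e (0.40), higher (42.5% and 2.5%), and 14 assembly genes were lower and 0 higher (37.8% and 0%).

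RNA polymerase I genes, which serve ribosomal RNA synthesis, were lower in 11 of 13 and higher in 1 (median -0.46), with Polr1h at -0.67 ± 0.11 (adjusted p = 2.48e-05), Ttf1 at -0.65 ± 0.11 (adjusted p = 3.78e-05) and Polr1d at 1.53 ± 0.16 (adjusted p = 1.76e-07). Growth control genes, those around mTORC1 together with Myc and Max, were lower in 16 of 21 and higher in 1 (median -0.46). Eif4ebp2 and the S6 kinase gene Rps6kb2 were at -0.87 ± 0.08 (adjusted p = 2.41e-08) and -0.77 ± 0.12 (adjusted p = 1.92e-05), while Tsc2, which encodes an inhibitor of mTORC1, rose by 1.28 ± 0.14 (adjusted p = 2.22e-07). With the trend removed 3 polymerase I genes were lower (23.1%) and 1 higher, and 5 growth control genes were lower (23.8%) and 5 higher (23.8%). On the background pileup scale Tsc2 (0.29) lost its call.

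Mitochondrial ribosomal protein genes, which serve the separate ribosome of mitochondria, were lower in 48 of 62 and higher in 2 (median -0.40). Removal of the trend left 13 lower and 5 higher (8.06%), beside 15.9% and 20.2% of all genes. Mrps6 was at -1.39 ± 0.08 (adjusted p = 1.11e-10), Mrps18b at -1.01 ± 0.06 (adjusted p = 9.55e-11) and Mrps28 at 1.22 ± 0.16 (adjusted p = 3.18e-06), the last losing its call on the background pileup scale (0.26). Small nucleolar RNA genes, many of which sit in introns of ribosomal protein and other host genes, were lower in 15 of 45 (33.3%) and higher in 10 (22.2%), near the shares of all genes (median 0.01). After removal of the trend 8 were lower (17.8%) and 11 higher (24.4%), again near them. Snora31 and Snora34 were at -1.104 ± 0.08 (adjusted p = 7.86e-10) and -0.80 ± 0.07 (adjusted p = 1.41e-08), and Snora43 at 1.70 ± 0.25 (adjusted p = 7.51e-06). Of ribosomal protein genes whose names fall outside the rule 4 were tested, with 2 lower: Rack1 (-0.98 ± 0.10, adjusted p = 6.51e-08) and Fau (-0.71 ± 0.10, adjusted p = 6.97e-06). Rpl37rt was at 0.07 ± 0.22 (adjusted p = 0.806). Differences between these lists and the cytosolic ribosomal protein genes were not tested.

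**Figure D5:**
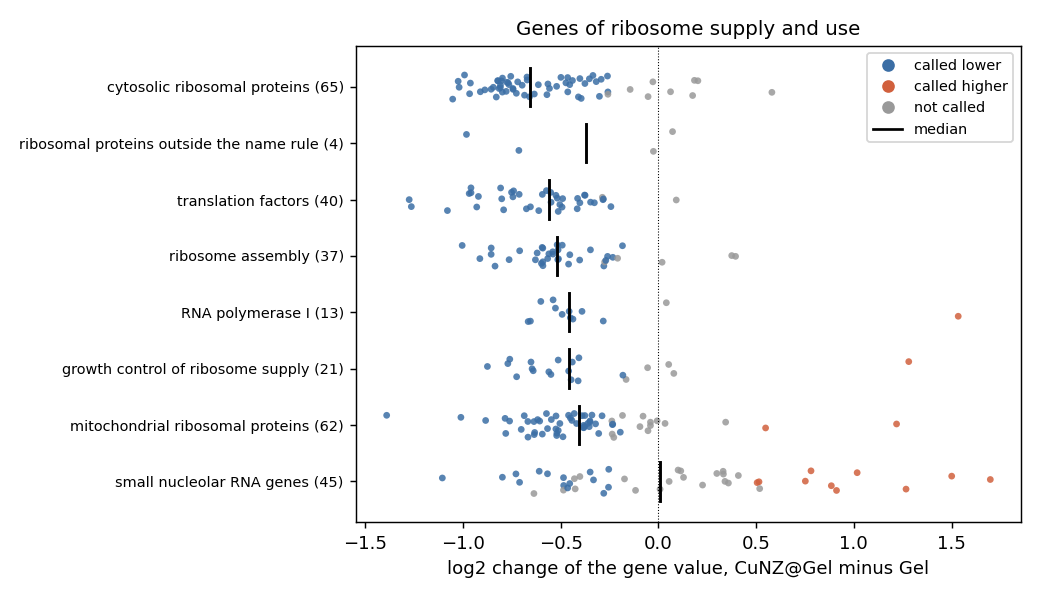
Each point is a gene at its log2 change, in rows by list with the number of genes tested, blue for called lower, orange for called higher and grey for not called; the black bar is the list's median. The medians run from -0.66 in cytosolic ribosomal proteins to 0.01 in small nucleolar RNA genes, and orange points appear in 4 rows.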

How the data were processed

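Accessibility in 4 RAW264.7 libraries, 2 Gel and 2 CuNZ@Gel grouped by title, was analysed. Per the submitters' processing notes the tools were Bowtie2 2.3.4.3, MACS2 2.2.8, Picard 2.27.5, SAMtools 1.17 and fastp 0.23.1, with build GRCm39; the sources used here do not give their roles, order or filters. The authors deposited a log2 value for each of 80929 regions per library, named by nearest gene. Taken as log2(RPM + 1), the deposited log2 values reversed to whole reads within 0.1 for 100% of low values; RPM is per 1000000 effective reads (reads in regions times a recovered scaling factor of 0.910, 0.902, 1.11 and 1.10). The deposited peak lists, 1 per library, hold a fold enrichment (ratio), the -log10 of p and q values and an integer score, all the authors' own; they served to place regions and to count libraries with a peak. Peaks of all lists that touched or lay 1 base apart were joined, which gave the region coordinates, counted from 1.

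Gene values were log2(sum of RPM + 1). With limma 3.58.1 under R 4.3.3, a two-sided model with intensity trend (Benjamini-Hochberg adjustment, threshold 0.05) was fitted to all regions and all genes with at least 10 reads at the median library size in 2 libraries and 15 in all, after a check on simulated data. No value was imputed and no library was dropped except where stated. An exact permutation test of 2 against 2 libraries cannot go below p = 0.333. The log2(RPM + 1) scale understates changes of low values, and depth limits precision in CuNZ@Gel most. Because the filter asks for 2 libraries only, a weak region or gene can pass through a single group, which bears on changes at low level. Members and gene lists were chosen with earlier results of these data known. Named members are the 8 lowest and 8 highest changes, the 5 highest and 5 lowest levels, and a set of genes and paralogs with known roles; in other lists, the 2 lowest and 1 highest change. Some members enter the counts but are not reported here by name. Alternatives covered scaling, pseudocount, filter, voom, trend, block, single libraries left out, the strongest region alone and paralogs left out. Promoter letters came from RefSeq (GRCm38.p6). RPM values are not divided by region width.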

Additional observations from a re-analysis of the deposited data

How the results depend on the processing

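Main counts were 56 genes lower, 0 higher and a median of -0.66, and 72 regions lower, 20 higher and a median of -0.41. With library totals 5 genes were higher, where 34.3% of all genes were, and the medians were -0.38 (genes) and -0.15 (regions). With cyclic loess 26 genes and 43 regions were lower, 1 gene was higher, and the medians were -0.18 and -0.15. On the background pileup 5 regions (3.65%) were higher, where 4.85% of all regions were, and the medians were -1.70 and -1.41. Cyclic loess on gene values, chosen after seeing the data, gave 44 lower, 3 higher and a median of -0.36. Of all genes 22.9% were lower and 24.2% higher there, with a median of -0.03. With a pseudocount of 5 the medians were -0.62 and -0.34, and with voom the region median was -0.45. With the strongest region alone 60 genes were lower and 0 higher, with a median of -0.73. Of all genes 40.2% were lower and 15.6% higher on that measure. The stricter filter gave 1 gene and 7 regions higher, with a region median of -0.57. Median-of-ratios scaling gave 1 gene higher (Rps15a). Shares over all genes were not counted for the stricter filter, this scaling or the replicate block below. Without single libraries gene medians ran from -0.68 to -0.63 with 50 to 55 lower and 0 to 2 higher, and region medians from -0.45 to -0.38 with 13 to 18 higher.

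Changes of sign were those of Rps23 (library totals 0.25, gene-level loess 0.30), Rpl31 (background -0.93, strongest region -0.74), Rps21 (background -0.83), Rps15a (background -0.86, strongest region -0.51), Rpl37rt (background -0.85), Eif4e (background -0.96, strongest region -0.32), Rpl5 (totals 0.017, loess 0.028), Rpl13a (loess 0.064), Rps19 (loess 0.0076), Rpl11 (loess 0.0035, gene-level loess 0.075) and Rpl38 (loess 0.035, gene-level loess 0.064). Beyond the values of single regions, the cause was not tested.

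Same-numbered libraries deviated with a correlation of 0.02 over regions and 0.04 over genes, from 2 pairs. So few libraries cannot show whether those of the same number were handled together. The replicate block gave 56 genes lower and 1 higher (Rps15a, adjusted p = 0.0240), and 72 regions lower and 22 higher. Depth limits the weakest members, Rpl9 and Rps27, and the CuNZ@Gel libraries most.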
